A study of Mus musculus with 16 samples.

Results

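Interferon-stimulated genes are the genes that cells switch on in answer to interferons, and 39 of them, named by symbol, were followed across cultured mouse primary hepatocytes. All 39 had a row among the 55416 mouse genes of the deposited table. Of these, 37 reached 1 TPM in at least 4 of the 16 samples and entered the tests, which covered 11858 genes. The 2 that did not were Mx1 and Ifi44. Mx1, a dynamin-like antiviral GTPase, stayed between 0 and 0.49 TPM, and Ifi44, an interferon-induced protein, between 0.2 and 1.06 TPM, so both are treated as not expressed here.

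The hepatocytes came from a Cre-loxP cross. Cells without albumin-promoter Cre (Alb-cre-) are called FLOX and cells with it (Alb-cre+), in which Smpd3 was to be deleted, are called HKO. The albumin promoter is active in hepatocytes. Cells of either genotype were given vehicle or palmitic acid (0.4 mM) over 24 h, and each of the 4 groups held 4 samples, numbered 1 to 4 as in the labels. Smpd3 encodes a neutral sphingomyelinase of membranes, and palmitic acid, a saturated fatty acid, was used to model steatohepatitis in culture. The labels name no age, sex or strain. Nor do they say whether samples of a group came from separate mice, so the p-values reflect only how far these samples vary, and that variation may be technical.

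Interferons are secreted proteins that bind receptors on the cell surface. The receptors for type I (alpha, beta) and type III (lambda) interferon activate the kinases JAK1 and TYK2, which phosphorylate STAT proteins, STAT2 among them. STAT2 joins IRF9 in a complex that binds a DNA element called ISRE. Interferon gamma acts through JAK1 and JAK2 and another element, GAS. Cells make interferon when sensors such as RIG-I (Ddx58), MDA5 (Ifih1) or cGAS detect foreign or misplaced nucleic acids, and hepatocytes are a well-studied target because of the hepatitis viruses.

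Smpd3 stood at 37.1, 29.7, 27.8 and 33.2 TPM in the FLOX vehicle samples and 4.25, 5.89, 5.54 and 5.46 TPM in the HKO vehicle samples, so the labels and the targeted gene match. Under palmitic acid it stood at 42.5, 47.1, 46.7 and 47.8 TPM in FLOX and 7.88, 9.15, 7.82 and 6.44 TPM in HKO. TPM is a length-scaled share of a sample's transcripts. Read numbers cannot be had from it, so depth is unknown here and precision rests on the 4 samples of a group. Between 11231 and 11498 genes reached 1 TPM in a sample. Hepatocyte markers were high, with albumin (Alb) between 17752 and 24692 TPM, but their sum over 10 genes was lower with palmitic acid (44800 to 46100 TPM in FLOX vehicle and 36400 to 37900 TPM in FLOX palmitic acid samples, 44500 to 46500 and 36800 to 37600 TPM in HKO). Of 14 markers of lymphocytes, dendritic cells and neutrophils, 14 stayed below 1 TPM in all samples and 7 were at 0 throughout, among them Cd8a, Nkg7, Ncr1 and Siglech. These cells are rich sources of interferon in tissue. Of 12 macrophage markers 9 never reached 1 TPM, among them Adgre1 and Clec4f, and only Cd14 and Cd68 passed the filter. Their list sum was higher with palmitic acid in every sample (85.0 to 93.1 TPM in FLOX vehicle, 160 to 173 TPM in FLOX palmitic acid, 102 to 114 TPM in HKO vehicle and 201 to 240 TPM in HKO palmitic acid). Cd14 carried most of that rise, with means from 36.35 to 100.4 TPM in FLOX and from 42.21 to 120.9 TPM in HKO. Cd68 means went from 50.74 to 64.06 TPM in FLOX and from 62.41 to 89.1 TPM in HKO. The sum of 6 bile duct cell markers, among which Cftr was at 0, was higher in HKO (180 to 191 TPM in FLOX vehicle, 298 to 324 TPM in HKO vehicle, 197 to 242 TPM in FLOX palmitic acid and 338 to 386 TPM in HKO palmitic acid). Spp1 carried that sum (149 ± 6 TPM in FLOX vehicle and 274 ± 12 TPM in HKO vehicle). Krt19, of the same list, was also higher in HKO vehicle (8.64 ± 1.39 and 11.94 ± 1.17 TPM, limma adjusted p = 0.0319). Krt7 was lower there (2.31 ± 0.19 and 1.17 ± 0.054 TPM), and Sox9 did not pass the test between genotypes with either treatment. The part of these shifts in the results below was not tested. In such bulk samples, fewer cells of a type and less RNA per cell cannot be told apart.

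Libraries within a group differed in their interferon-stimulated genes. FLOX palmitic acid sample 1 was the lowest of its group for 31 of the 37 tested genes, with a median of 0.45 below the other 3 samples on the log2(TPM + 1) scale. The median over all tested genes in that sample was 0.084 below the other 3. FLOX vehicle sample 1 was the highest of its group for 23 of 37 (median difference 0.20), and HKO vehicle sample 2 for 24 of 37 (0.20). HKO vehicle sample 4 was the lowest for 27 of 37 (-0.16). The FLOX libraries numbered 1 therefore deviate in opposite directions, and the counts of members below are also given without them.

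**Figure D1:**
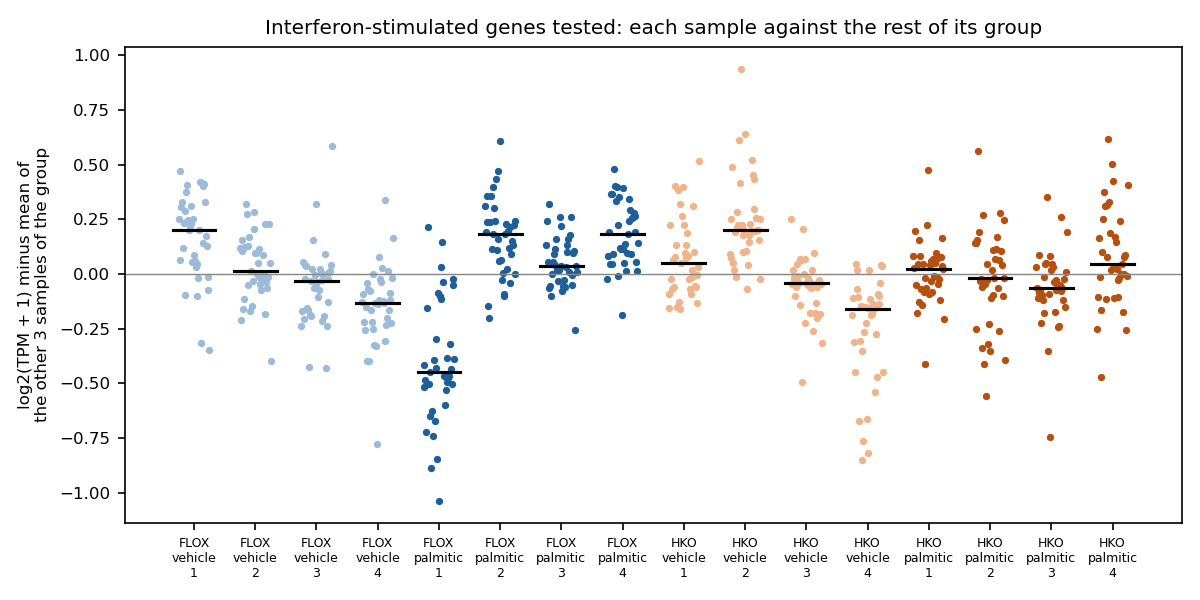
Each point is one of the 37 tested interferon-stimulated genes, plotted as its log2(TPM + 1) in a sample minus the mean of the other 3 samples of the group, with black bars at the median of each sample. FLOX palmitic acid sample 1 lies lowest, with a median of -0.45, and the other 15 medians lie between -0.16 and 0.20.

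Promoters were searched for the letters of both elements. RefSeq promoters on GRCm38.p6, which run from 250 bases before to 50 bases after a gene's start, were found by symbol for 30 of the 39 members (34 promoters). Those without an entry were Parp9, Parp14, Iigp1, Mx1, Mx2, Usp18, Rtp4, Dhx58 and Ifi27. The ISRE was searched as GAAANNGAAA and its reverse complement TTTCNNTTTC, and the GAS as TTCNNNGAA, which reads the same on both strands. The searches can overlap each other. ISRE letters were present in 18 of 30 members, against 3.44% of all 32851 promoters and 3.99% of the 27025 genes. GAS letters were present in 8 of 30, against 8.30% of promoters and 9.55% of genes, and 5 members held both. A match is a description of letters and not a binding site.

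The promoters of 5 members with different responses are shown, each as the 250 bases before the start, 5′ to 3′ on the gene's strand, with ISRE letters in capitals. Cxcl10 (chr5:92348890-92349139, minus strand) and Igtp (chr11:58199306-58199555, plus strand) hold the letters and were higher with palmitic acid in both genotypes. Isg15 (chr4:156200819-156201068, minus strand) holds 3 overlapping matches and did not pass the test, B2m (chr2:122147437-122147686, plus strand) holds 1 and was lower, and Oasl1 (chr5:114922990-114923239, plus strand) holds none and was higher.
Cxcl10: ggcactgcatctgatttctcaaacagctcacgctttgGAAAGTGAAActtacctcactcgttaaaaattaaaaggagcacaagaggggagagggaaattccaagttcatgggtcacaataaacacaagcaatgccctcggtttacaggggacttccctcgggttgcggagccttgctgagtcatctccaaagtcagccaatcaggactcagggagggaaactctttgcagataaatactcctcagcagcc
Igtp: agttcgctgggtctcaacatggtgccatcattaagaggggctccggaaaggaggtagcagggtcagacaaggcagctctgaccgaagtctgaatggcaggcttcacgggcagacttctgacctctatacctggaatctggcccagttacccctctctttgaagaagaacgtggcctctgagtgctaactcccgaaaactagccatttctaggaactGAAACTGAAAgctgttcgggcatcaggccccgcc
Isg15: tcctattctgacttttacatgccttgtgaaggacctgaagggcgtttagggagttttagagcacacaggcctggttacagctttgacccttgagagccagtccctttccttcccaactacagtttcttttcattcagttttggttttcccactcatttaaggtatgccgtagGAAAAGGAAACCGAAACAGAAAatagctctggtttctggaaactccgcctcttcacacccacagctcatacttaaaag
B2m: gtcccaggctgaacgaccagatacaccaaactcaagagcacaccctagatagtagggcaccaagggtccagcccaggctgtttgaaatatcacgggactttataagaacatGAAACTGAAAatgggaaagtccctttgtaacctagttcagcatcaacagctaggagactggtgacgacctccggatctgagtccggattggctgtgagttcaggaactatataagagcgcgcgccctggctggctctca
Oasl1: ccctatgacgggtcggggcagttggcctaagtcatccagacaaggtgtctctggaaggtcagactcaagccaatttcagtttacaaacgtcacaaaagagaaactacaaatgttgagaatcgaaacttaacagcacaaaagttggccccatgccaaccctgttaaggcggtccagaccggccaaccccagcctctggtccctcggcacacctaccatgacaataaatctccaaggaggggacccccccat

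No interferon gene reached 1 TPM in any sample. Of 21 interferon ligand genes 18 were at 0 TPM in all 16 samples, and the highest value was 0.63 TPM, for Ifnk (interferon kappa). Ifnb1, the interferon beta gene, was above 0 in 1 sample only, at 0.1 TPM. The receptors were present. Ifnar1, a chain of the type I receptor, rose with palmitic acid from 13.5 ± 1.1 to 20.6 ± 2.3 TPM in FLOX and from 13.4 ± 0.5 to 21.1 ± 1.7 TPM in HKO (mean ± SD, n = 4 in each group, as for all means here; log2 fold changes 0.57 ± 0.079 and 0.61 ± 0.079, ± SE; limma adjusted p = 4.52e-05 and 1.50e-05). Ifnar2, the other chain of that receptor, fell in FLOX (-0.20 ± 0.059, limma adjusted p = 0.0166) and was -0.054 ± 0.059 in HKO, with an interaction of 0.15 ± 0.084. With only the groups compared in the fit, the FLOX call of Ifnar2 was lost (adjusted p = 0.0662). Ifngr1, the ligand-binding chain of the interferon gamma receptor, fell from 82.7 ± 2.4 to 62.9 ± 3.5 TPM in FLOX and from 65.7 ± 0.58 to 52.5 ± 3.9 TPM in HKO. Its partner Ifngr2 rose, with log2 fold changes of 0.29 ± 0.051 and 0.39 ± 0.051, as did Il10rb, which the interferon lambda receptor shares with interleukin 10 (0.29 ± 0.096 and 0.31 ± 0.096). Of the 6 receptor genes, 3 were higher and 2 lower in FLOX, and 3 higher and 1 lower in HKO. Over all tested genes 23% were higher and 11.5% lower in FLOX, and 29.4% and 13.1% in HKO. The chain particular to interferon lambda, Ifnlr1, was not called.

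Of the kinases that the receptors carry, Jak2 rose in both genotypes (0.34 ± 0.084 in FLOX and 0.22 ± 0.084 in HKO). Tyk2 passed the threshold in HKO alone (0.26 ± 0.079). In the list of nucleic acid sensors and adaptors 5 of 9 tested genes were higher in FLOX (55.6%, against 23% of all genes) and 4 in HKO (44.4%, against 29.4%). They included Ikbke, a kinase that activates IRF3 (0.52 ± 0.072 and 0.34 ± 0.072), Myd88, an adaptor of Toll-like receptors (0.22 ± 0.057 and 0.35 ± 0.057), Tlr3, a receptor for double-stranded RNA (0.36 ± 0.12 and 0.35 ± 0.12), and, in FLOX alone past the threshold, Traf3, an adaptor of the sensors (0.46 ± 0.15). The other 8 genes of this list did not pass the filter, and Cgas and Sting1, the cytosolic DNA sensor and its adaptor, stayed at or below 0.22 and 0.46 TPM.

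Among 9 tested inhibitors of the pathway, 3 were higher with palmitic acid in FLOX (33.3%, against 23% of all genes) and 4 in HKO (44.4%, against 29.4%). Adar, an editor of double-stranded RNA, rose by 0.55 ± 0.11 and 0.44 ± 0.11 on the log2 scale and Trex1, a DNA exonuclease, by 0.40 ± 0.092 and 0.54 ± 0.092. Irf2, a repressor that binds the same DNA as IRF1, passed the threshold in HKO alone (0.44 ± 0.15). The interaction, the HKO response minus the FLOX response, called 0 of the 73 tested pathway genes outside the members, against 0.194% of all genes. Calls in 1 genotype alone, as for Irf2, Tyk2 and Traf3, therefore do not show that the genotypes differ. Socs1, a feedback inhibitor, did not reach the filter. Of the 45 calls of the pathway genes named by rule, 11 were lost in at least 1 alternative analysis. For 10 of these calls leaving out 1 sample was enough. In FLOX these samples were vehicle 2, 3 or 4 or palmitic acid 2 or 4 for Il10rb, vehicle 2 or 3 or palmitic acid 2 or 3 for Tlr3, and vehicle 2 or 4 or palmitic acid 2 or 4 for Traf3. In HKO they were vehicle 1 or palmitic acid 1 for Il10rb, vehicle 1, 3 or 4 or palmitic acid 2 or 3 for Tlr3, vehicle 4 or palmitic acid 2 for Tyk2, and vehicle 1 or 4 or palmitic acid 2 or 4 for Irf2. The HKO call of Jak2 was lost without any of 9 samples (HKO vehicle 1, 3 or 4, HKO palmitic acid 1, 2 or 3, FLOX vehicle 2 or 3, or FLOX palmitic acid 4; adjusted p 0.053 to 0.121). The FLOX call of Myd88 was lost only under the 2 other scalings. Ikbke was also higher in HKO than in FLOX under vehicle (0.24 ± 0.072), a call lost without FLOX vehicle 2 or 4, HKO vehicle 2, 3 or 4, or HKO palmitic acid 1, 2 or 3 (adjusted p 0.0511 to 0.127).

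Palmitic acid raised 14 of the 37 tested interferon-stimulated genes in FLOX cells and lowered 4, and raised 12 and lowered 5 in HKO cells (limma adjusted p below 0.05 over 11858 genes). The 14 were 37.8% of the members, against 23% of all tested genes called higher. The 12 were 32.4%, against 29.4%, so on the TPM scale as deposited the share in HKO lay near that of all genes. The called-lower shares were 10.8% against 11.5% in FLOX and 13.5% against 13.1% in HKO. The median log2 fold change of the members was 0.27 in FLOX, where that of all tested genes was 0.096, and 0.19 in HKO, where it was 0.11. In both genotypes 11 members rose, which is 29.7% of them against 18.9% of all genes, and 4 fell, which is 10.8% against 9.48%. No sample enters the fold changes of both genotypes, but the tests share a spread estimated over all 16 samples. The calls in FLOX and in HKO are therefore not independent. Without any overlap between groups, 6 members lay higher and 4 lower in FLOX (18.1% and 10.9% of all genes), and 12 higher and 4 lower in HKO (28.7% and 12.4%). Genes called in either direction made up 34.4% of all tested genes in FLOX and 42.5% in HKO. With median-ratio scaling the median of all genes in HKO dropped from 0.11 to 0.0056 and that of the members to 0.071. The HKO calls were then 10 higher (27.0%, against 17.7% of all genes) and 6 lower (16.2%, against 20%). The same scaling gave 13 higher (35.1%, against 13.9%) and 4 lower (10.8%, against 16.7%) members in FLOX. Over all genes it moved the share of calls that were higher from 66.7% to 45.4% in FLOX and from 69.3% to 47.0% in HKO, and quantile normalization moved it to 50.4% and 51.9%.

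Without FLOX palmitic acid sample 1, palmitic acid raised 22 members in FLOX (59.5%, against 29.3% of all genes) and lowered 4 (against 11.8%), and the median was 0.43. Without both FLOX libraries numbered 1 it raised 25 (67.6%, against 33.3%), lowered 4 (10.8%, against 11.4%) and gave a median of 0.49, and all 18 calls made with all samples were kept. These libraries were singled out in part by these same genes, 1 low with palmitic acid and the other high with vehicle, so leaving them out had to widen the members' rise, and the values are a description. Isg15 then had a log2 fold change of 0.68 (adjusted p = 0.0126) in place of 0.45 (0.0868), and Stat2 one of 0.66 (0.00189) in place of 0.41 (0.0714). Leaving out FLOX palmitic acid sample 1 alone was enough for Isg15, Stat2, Irf7, Oas1a, Parp9, Gbp7, Irgm1 and Iigp1 to be called, with log2 fold changes from 0.24 for Iigp1 to 0.61 for Isg15. Ddx58, Ifih1 and Ifit1 were added when both were left out (0.30, 0.31 and 0.62). Leaving out FLOX vehicle sample 1 alone gave 17 higher (45.9%, against 26.2% of all genes) and 4 lower (10.8%, against 10.6%). In HKO, leaving out both acts only through the genes tested and the shared spread, and it gave 14 higher and 5 lower (33.4% and 14.1% of all genes), adding Usp18 and Oasl2.

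**Figure D2:**
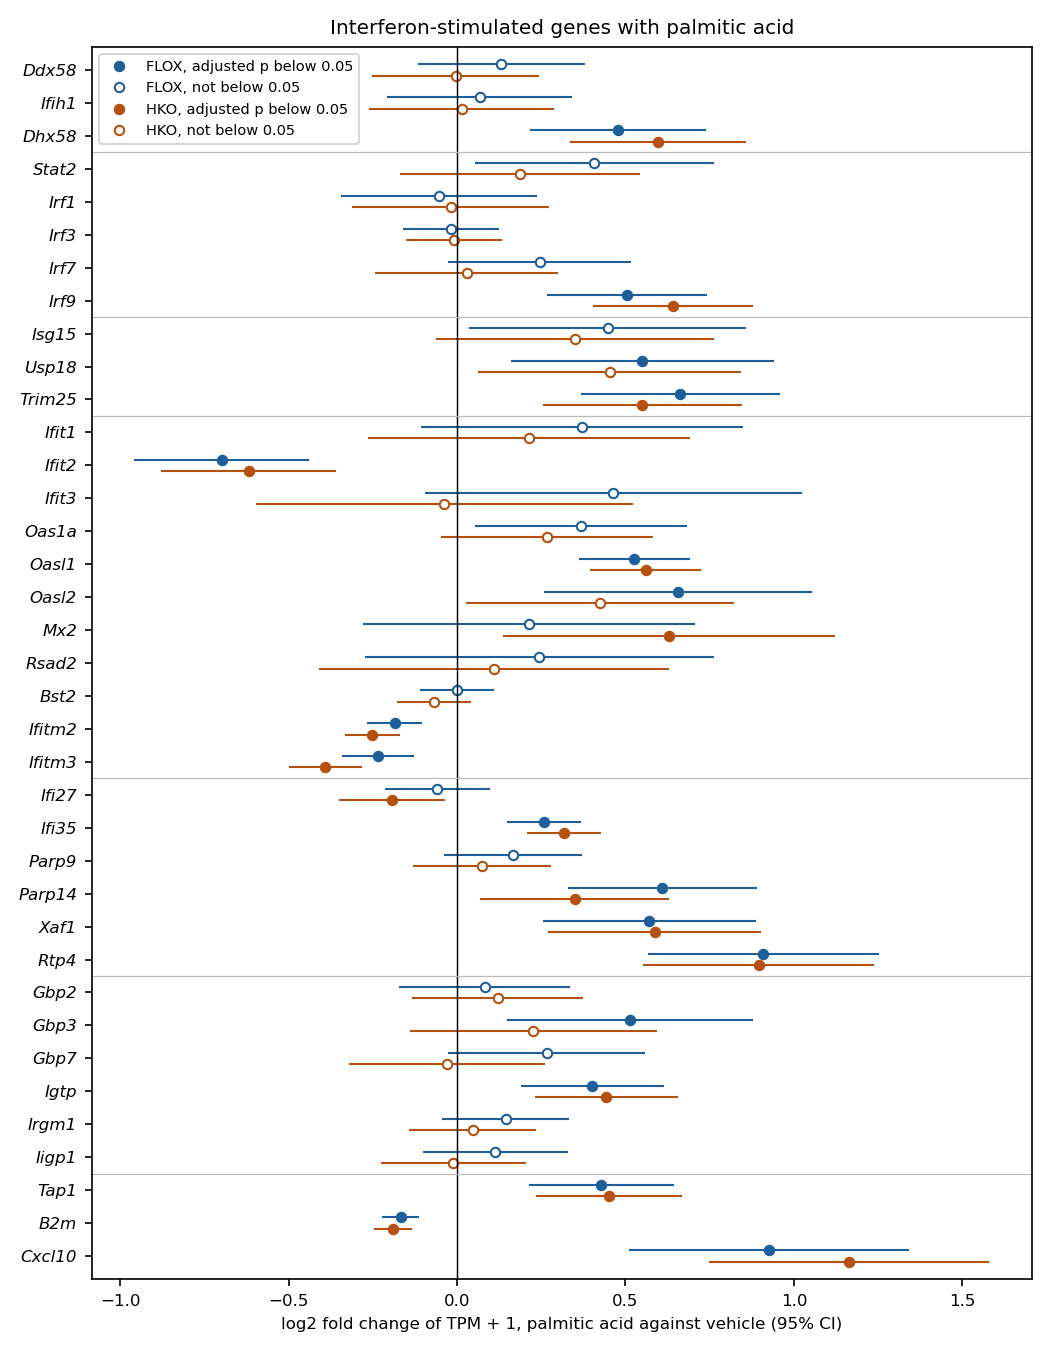
Log2 fold changes of TPM + 1 with palmitic acid for the 37 tested members, ordered by role, in FLOX (blue) and HKO (orange) with 95% confidence intervals from limma; filled points passed an adjusted p of 0.05. The rises, largest for Cxcl10 in HKO, stand beside falls in Ifit2, Ifitm2, Ifitm3 and B2m in both genotypes.

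Among the RNA sensors, Dhx58 (LGP2), a helicase that tunes RIG-I and MDA5, rose in both genotypes. Its levels were 4.91, 5.03, 4.87 and 4.09 TPM in FLOX vehicle samples 1 to 4 and 5.19, 8, 7.18 and 7.8 TPM with palmitic acid, and 5.59, 5.1, 4.93 and 3.99 TPM in HKO vehicle and 8.82, 6.79, 7.39 and 8.67 TPM with palmitic acid. No palmitic acid sample overlapped with the vehicle samples of its genotype, although FLOX sample 1 came close (log2 fold changes 0.48 ± 0.12 and 0.60 ± 0.12, limma adjusted p = 0.00696 and 0.00108). Ddx58 (12.7 ± 1.6 TPM in FLOX vehicle, 14.1 ± 2.3 with palmitic acid) and Ifih1 (7.51 ± 1.5 and 7.92 ± 1.5) were not called in any comparison of all samples.

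Of the transcription factors, Irf9, the DNA-binding partner of STAT2, rose. It stood at 6.99, 8.91, 6.75 and 7.11 TPM in FLOX vehicle and 8.45, 13.3, 10.9 and 11.5 TPM in FLOX palmitic acid samples, where sample 1 lay below the highest vehicle value. In HKO it went from 8.23, 7.79, 8.06 and 7.38 to 11.9, 12.7, 12.1 and 14.7 TPM with no overlap (log2 fold changes 0.51 ± 0.11 and 0.64 ± 0.11, limma adjusted p = 0.00253 and 0.000264). Irf3, the factor that acts directly downstream of the sensors and is made without interferon, was the most abundant of the 5 at 64.1 ± 3.4 TPM in FLOX vehicle and had log2 fold changes of -0.019 ± 0.067 and -0.0085 ± 0.067. Stat2, Irf1 and Irf7, the factor that amplifies interferon production, were not called with all samples, with values of 0.41 ± 0.17, -0.053 ± 0.14 and 0.25 ± 0.13 in FLOX and 0.19 ± 0.17, -0.019 ± 0.14 and 0.028 ± 0.13 in HKO.

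Isg15 is a ubiquitin-like protein, Usp18 removes it from its targets and shuts down the type I receptor, and Trim25 is a ubiquitin ligase that activates RIG-I. Trim25 was 19.2, 14.9, 13.8 and 14 TPM in FLOX vehicle and 17.6, 27.4, 26.4 and 29.7 TPM with palmitic acid, where sample 1 alone lay within the vehicle range. In HKO it was 14.9, 18.3, 16.8 and 14.9 TPM with vehicle and 22.4, 28, 24 and 22.7 TPM with palmitic acid, with no overlap (log2 fold changes 0.66 ± 0.14 and 0.55 ± 0.14, limma adjusted p = 0.00174 and 0.00484).

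Usp18 was 17, 14.9, 10.9 and 13.2 TPM in FLOX vehicle and 12.7, 25.7, 21.8 and 25.8 TPM with palmitic acid. Its FLOX sample 1 with palmitic acid again lay within the vehicle range while the other 3 lay above it. In HKO the values were 14.7, 15.4, 13.3 and 11.5 TPM and 18.3, 18.4, 17.3 and 22.6 TPM, which do not overlap. The test passed in FLOX (0.55 ± 0.18, limma adjusted p = 0.0291) and not in HKO (0.45 ± 0.18, adjusted p = 0.0579), and the interaction was -0.098 ± 0.26. The FLOX call was lost in 8 of 25 alternatives, among them leaving out FLOX vehicle sample 3 or 4 or FLOX palmitic acid sample 2, 3 or 4 (adjusted p 0.0645 to 0.0959). Isg15 was 23.4, 23.2, 18.3 and 16.1 TPM in FLOX vehicle and 19.4, 29.4, 28.5 and 35.8 TPM with palmitic acid and was not called in FLOX (0.45 ± 0.19, limma adjusted p = 0.0868) or HKO (0.35 ± 0.19, 0.161).

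Among the antiviral effectors, 2 of 11 tested members were higher and 3 lower in each genotype. The higher share was thus 18.2% in each, below the 23% of all genes in FLOX and 29.4% in HKO. Genes called lower made up 11.5% of all genes in FLOX and 13.1% in HKO. Oasl1, an oligoadenylate synthetase-like protein that restrains translation of Irf7, was the most abundant of its family. It stood at 56.5, 49.2, 48.4 and 46.6 TPM in FLOX vehicle and 62, 78.9, 73.1 and 77.1 TPM with palmitic acid, and at 48.3, 49.7, 47 and 43.5 and 67.5, 68.8, 66.5 and 77.1 TPM in HKO. The groups did not overlap in either genotype (log2 fold changes 0.53 ± 0.077 and 0.56 ± 0.077, limma adjusted p = 7.69e-05 and 3.01e-05).

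Oasl2, a relative of Oasl1, was low. Its values were 0.6, 0.8, 0.55 and 0.31 TPM in FLOX vehicle, 0.58, 2.13, 1.81 and 1.6 TPM in FLOX palmitic acid, 0.83, 0.75, 0.42 and 0.42 TPM in HKO vehicle and 1.4, 0.81, 1.23 and 1.16 TPM in HKO palmitic acid. It passed the filter only through 6 palmitic acid samples, so it had to differ. Its call in FLOX (0.66 ± 0.19, limma adjusted p = 0.013) is among the 14 and is given as a description. Mx2, a dynamin-like GTPase, was called in HKO only (0.63 ± 0.23, limma adjusted p = 0.0388; 0.21 ± 0.23 in FLOX, and an interaction of 0.41 ± 0.33). Mx2 stood at 1.62, 1.37, 1.21 and 0.51 TPM in HKO vehicle and 3.22, 1.93, 1.24 and 3.28 TPM in HKO palmitic acid samples, which overlap, and at 1.2, 1.15, 1.28 and 0.29 and 1.14, 1.31, 1.51 and 1.03 TPM in FLOX. The call was lost in 10 of 24 alternatives, among them leaving out HKO vehicle sample 3 or 4 or HKO palmitic acid sample 1 or 4 (adjusted p 0.0613 to 0.13).

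Ifit2, a tetratricopeptide-repeat protein that binds viral RNA, fell. It stood at 6.41, 5.11, 5.56 and 5.67 TPM in FLOX vehicle and 2.35, 3.66, 3.47 and 3.09 TPM with palmitic acid, and at 4.71, 6.58, 5.31 and 4.08 and 2.81, 2.88, 3.08 and 3.14 TPM in HKO. Every palmitic acid sample lay below every vehicle sample of its genotype (log2 fold changes -0.70 ± 0.12 and -0.62 ± 0.12, limma adjusted p = 0.000376 and 0.000761). Its relatives Ifit1 and Ifit3 were not called, with 0.37 ± 0.22 and 0.46 ± 0.26 in FLOX and 0.21 ± 0.22 and -0.038 ± 0.26 in HKO. Ifit3 has a near-identical copy, Ifit3b, between which reads could have been split.

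Ifitm2 and Ifitm3, membrane proteins that block entry of viruses, also fell. Ifitm3 went from 448 ± 14 to 380.4 ± 21 TPM in FLOX and from 428 ± 24 to 326 ± 20.1 TPM in HKO (-0.23 ± 0.05 and -0.39 ± 0.05, limma adjusted p = 0.00206 and 1.54e-05). Ifitm2 went from 161 ± 6.6 to 141 ± 3.6 TPM and from 195 ± 6.2 to 164 ± 6.3 TPM (-0.19 ± 0.038 and -0.25 ± 0.038). Bst2 (tetherin), which holds budding virions at the cell surface, was abundant at 249 ± 12 TPM in FLOX vehicle and 249 ± 14 TPM with palmitic acid and was not called (-0.00046 ± 0.052 and -0.067 ± 0.052). With median-ratio scaling, Bst2 was called lower in HKO (-0.19). Oas1a, a sensor of double-stranded RNA with close copies, and Rsad2 (viperin) were low, at 1.96 ± 0.44 and 3.47 ± 0.26 TPM in FLOX vehicle, and were not called with all samples.

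**Figure D3:**
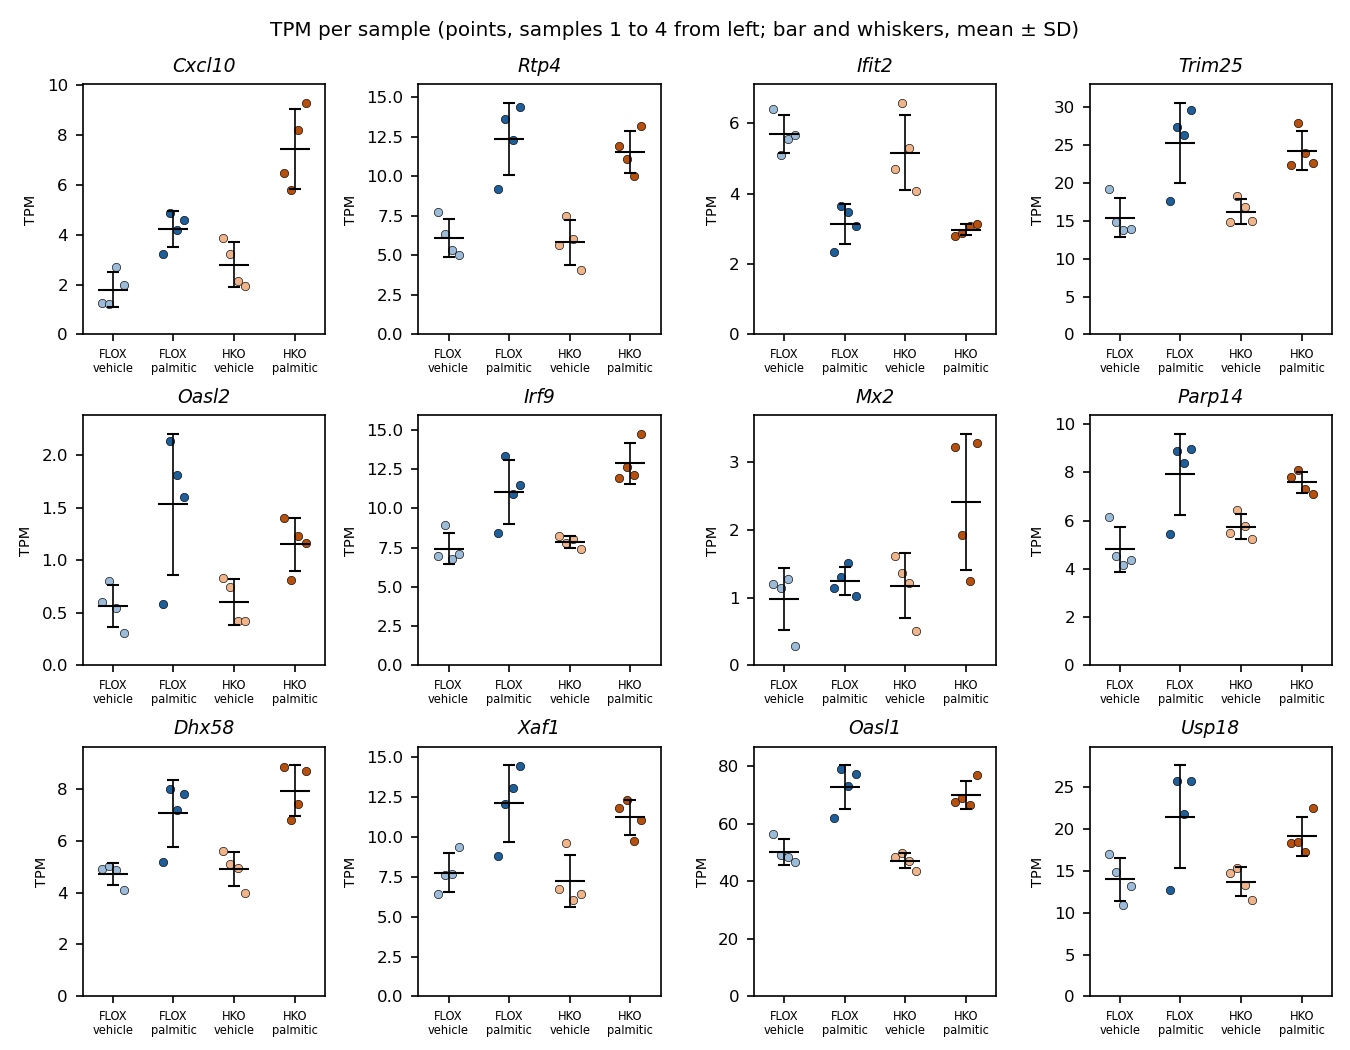
TPM in each sample for the 12 members with the largest called log2 changes, with points for samples 1 to 4 from left to right in each group and bars for the mean ± SD. Each panel starts at 0; of these, only Ifit2 fell with palmitic acid, and FLOX palmitic acid sample 1 is the lowest of its group in all panels but Mx2.

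Rtp4, a chaperone of receptors that also restrains antiviral signalling, had the largest rise of the remaining interferon-induced proteins. Its FLOX vehicle samples stood at 7.71, 6.34, 5.35 and 4.99 TPM and its FLOX palmitic acid samples at 9.19, 13.6, 12.3 and 14.3 TPM. In HKO the values were 5.66, 7.49, 6.05 and 4.07 TPM and 11.9, 11.1, 10.02 and 13.1 TPM. The groups were apart in both genotypes, with ratios of means of 2.03 in FLOX and 1.98 in HKO (log2 fold changes 0.91 ± 0.16 and 0.90 ± 0.16, limma adjusted p = 0.000431 and 0.000345).

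Xaf1, a pro-apoptotic partner of XIAP, was 6.39, 7.61, 7.69 and 9.37 TPM in FLOX vehicle and 8.82, 12.1, 13.1 and 14.5 TPM with palmitic acid, with sample 1 inside the vehicle range. In HKO it was 6.72, 9.62, 6.07 and 6.45 TPM and 11.8, 12.3, 9.74 and 11.1 TPM, where the highest vehicle sample stood just below the lowest palmitic acid sample (0.57 ± 0.15 and 0.59 ± 0.15, limma adjusted p = 0.00768 and 0.00496).

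Parp14, an ADP-ribosyltransferase, was 6.16, 4.53, 4.14 and 4.37 TPM in FLOX vehicle and 5.43, 8.87, 8.39 and 8.95 TPM with palmitic acid, and 5.49, 6.44, 5.79 and 5.23 and 7.79, 8.09, 7.31 and 7.11 TPM in HKO. Only FLOX palmitic acid sample 1 lay within the vehicle range (0.61 ± 0.13 and 0.35 ± 0.13, limma adjusted p = 0.0022 and 0.0438). The HKO call was lost in 14 of 25 alternatives. They included leaving out any HKO palmitic acid sample, HKO vehicle sample 1, 3 or 4, FLOX vehicle sample 2 or 4 or FLOX palmitic acid sample 3 (adjusted p 0.0502 to 0.106), and both scalings.

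Ifi35, which binds the STAT-interacting protein NMI, rose in both genotypes from 31 ± 0.33 to 37.3 ± 1.6 TPM and from 28.5 ± 2.2 to 35.8 ± 1.1 TPM (0.26 ± 0.051 and 0.32 ± 0.051, limma adjusted p = 0.00117 and 0.000135). Ifi27, a mitochondrial interferon-induced protein, was lower in HKO (-0.19 ± 0.074, limma adjusted p = 0.0451; -0.058 ± 0.074 in FLOX, interaction -0.14 ± 0.10), where its samples overlapped. That call was lost in 12 of 25 alternatives, among them leaving out HKO vehicle sample 1 or 2, HKO palmitic acid sample 1 or 3, FLOX vehicle sample 3 or 4 or FLOX palmitic acid sample 3 or 4 (adjusted p 0.0522 to 0.144). Parp9, the partner of a ubiquitin ligase, was not called with all samples (0.17 ± 0.096 and 0.075 ± 0.096).

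Among the GTPases that guard against intracellular parasites, Igtp (Irgm3) rose from 16, 13.1, 12.4 and 12.2 to 15.1, 18.9, 17.4 and 20.9 TPM in FLOX, with sample 1 inside the vehicle range, and from 11.9, 14.2, 11.9 and 11.4 to 16, 18, 16.5 and 17.8 TPM in HKO with no overlap (0.40 ± 0.10 and 0.44 ± 0.10, limma adjusted p = 0.0057 and 0.00219). Gbp3, a guanylate-binding protein of a family of close copies, rose in FLOX from 1.48 ± 0.49 to 2.52 ± 0.6 TPM (0.51 ± 0.17, limma adjusted p = 0.0302) and was 0.23 ± 0.17 in HKO, with an interaction of -0.29 ± 0.24. The Gbp3 call was lost in 9 of 24 alternatives, among them leaving out FLOX vehicle sample 3 or 4 or FLOX palmitic acid sample 2, 3 or 4 (adjusted p 0.0546 to 0.101). Irgm1, the most abundant of the 6 at 34.1 ± 2.2 TPM in FLOX vehicle, and Gbp2, Gbp7 and Iigp1 were not called with palmitic acid in either genotype. Their log2 fold changes in FLOX were 0.14, 0.082, 0.27 and 0.11.

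In antigen presentation, Tap1, a subunit of the peptide transporter of the endoplasmic reticulum, rose and B2m, the light chain of MHC class I, fell. Tap1 went from 7.72 ± 0.84 to 10.7 ± 1.2 TPM in FLOX and from 7.5 ± 0.61 to 10.7 ± 1.5 TPM in HKO (0.43 ± 0.10 and 0.45 ± 0.10, limma adjusted p = 0.00412 and 0.00211). B2m, the most abundant member, went from 1525 ± 45 to 1358 ± 27 TPM and from 1702 ± 36 to 1492 ± 14 TPM (-0.17 ± 0.026 and -0.19 ± 0.026, limma adjusted p = 0.00014 and 2.91e-05).

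Cxcl10, a chemokine that draws activated T cells, had the largest rise of all tested members on the log2(TPM + 1) scale. It stood at 1.28, 1.22, 2.7 and 1.98 TPM in FLOX vehicle and 3.24, 4.88, 4.21 and 4.59 TPM in FLOX palmitic acid, and at 3.86, 3.23, 2.15 and 1.94 TPM in HKO vehicle and 6.49, 5.79, 8.19 and 9.29 TPM in HKO palmitic acid. The groups of each genotype did not overlap, with ratios of means of 2.36 and 2.66 (log2 fold changes 0.93 ± 0.20 and 1.16 ± 0.20, limma adjusted p = 0.00183 and 0.000188).

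Members that rose were found both with and without the ISRE letters printed above. Of 18 tested members with these letters, 2 (Cxcl10 and Igtp) rose in both genotypes, 3 (B2m, Ifitm2 and Ifitm3) fell in both and 12 were called in neither. Of 11 tested members without them, 6 (Ifi35, Irf9, Oasl1, Tap1, Trim25 and Xaf1) rose in both. For comparison, 18.9% of all tested genes rose in both genotypes and 9.48% fell in both. The split by ISRE letters is a description of 29 genes, and no match says only that these letters are not in this window.

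Between genotypes under vehicle, 3 of 37 members were higher in HKO than in FLOX and 0 lower by limma (1 lower at an unadjusted p under 0.05, Ifi35). That is 8.11% higher, against 4.11% of all genes called higher and 7.56% called lower. The 3 were B2m, Ifitm2 and Iigp1, an immunity-related GTPase, and none of their groups overlapped (3 members higher without overlap, against 6.06% of all genes, and 0 lower, against 11.7%). B2m stood at 1468, 1564, 1559 and 1508 TPM in FLOX and 1729, 1682, 1661 and 1736 TPM in HKO (0.16 ± 0.026, limma adjusted p = 0.000787). Ifitm2 stood at 163, 161, 152 and 168 TPM in FLOX and 203, 188, 193 and 197 TPM in HKO (0.28 ± 0.038, limma adjusted p = 0.000154). Iigp1 was 9.15, 8.43, 8.55 and 7.94 TPM in FLOX and 11.3, 13.7, 12 and 11.9 TPM in HKO, a ratio of means of 1.44 (0.47 ± 0.10, limma adjusted p = 0.00601). The median difference of the members was 0.040, and that of all genes -0.023. Over all genes 35.2% of the genotype calls were higher in HKO, and this share was 56.6% with median-ratio scaling and 51.9% with quantile normalization. The 3 member calls stood under both. Without both FLOX libraries numbered 1, Parp14 was called too (0.33), which made 4 higher and 0 lower (6% and 7.8% of all genes). This too is a description, as those libraries were singled out in part by these same genes.

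Under palmitic acid 4 members were higher in HKO and 1 lower, which is 10.8% and 2.70% of them, against 4.24% and 5.5% of all genes. Ifitm2 remained higher, at 144, 139, 137 and 145 TPM in FLOX and 169, 165, 167 and 155 TPM in HKO (0.21 ± 0.038, limma adjusted p = 0.00181). B2m was 1321, 1358, 1384 and 1367 TPM in FLOX and 1508, 1478, 1497 and 1484 TPM in HKO (0.14 ± 0.026, limma adjusted p = 0.0031), a call that median-ratio scaling took to an adjusted p of 0.0787. Ifitm3 was the one lower in HKO, at 358, 381, 375 and 408 TPM in FLOX and 320.3, 309.9, 319.8 and 356 TPM in HKO (-0.22 ± 0.05, limma adjusted p = 0.0103). It had no such call under vehicle, at 459, 459, 430.4 and 442 TPM in FLOX and 458, 437, 415 and 403 TPM in HKO (-0.065 ± 0.05). The FLOX and HKO samples lay apart for all 5 called members. Without overlap 4 members were higher and 2 lower (6.11% and 7.83% of all genes), the added one being Bst2, which missed the test (-0.14 ± 0.052, limma adjusted p = 0.117). Over all genes 9.74% were called in either direction, of which 43.5% were higher in HKO, against 55.0% with median-ratio scaling.

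Iigp1 under palmitic acid stood at 6.91, 10.03, 9.87 and 10.8 TPM in FLOX and 12.3, 11.4, 12 and 12.7 TPM in HKO (0.35 ± 0.10, limma adjusted p = 0.0387). That call was lost in 11 of 25 alternatives, among them leaving out FLOX palmitic acid sample 1 or 3, any HKO palmitic acid sample, FLOX vehicle sample 2 or HKO vehicle sample 3 (adjusted p 0.0504 to 0.0906). Cxcl10 was higher in HKO with a ratio of means of 1.76 (0.68 ± 0.20, limma adjusted p = 0.0372), and its difference under vehicle was 0.44 ± 0.20 (adjusted p = 0.173). The call under palmitic acid was lost in 10 of 25 alternatives, among them leaving out FLOX palmitic acid sample 1, 3 or 4 or HKO palmitic acid sample 1, 3 or 4 (adjusted p 0.0551 to 0.107), and a pseudocount of 0.1. Without FLOX palmitic acid sample 1, 2 members were higher and 1 lower (3.8% and 5.33% of all genes). Without both FLOX libraries numbered 1, 3 were higher and 2 lower (4.1% and 6.42%), Irgm1 being the added one (-0.20). These counts are a description, as the libraries left out were singled out in part by these same genes.

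**Figure D4:**
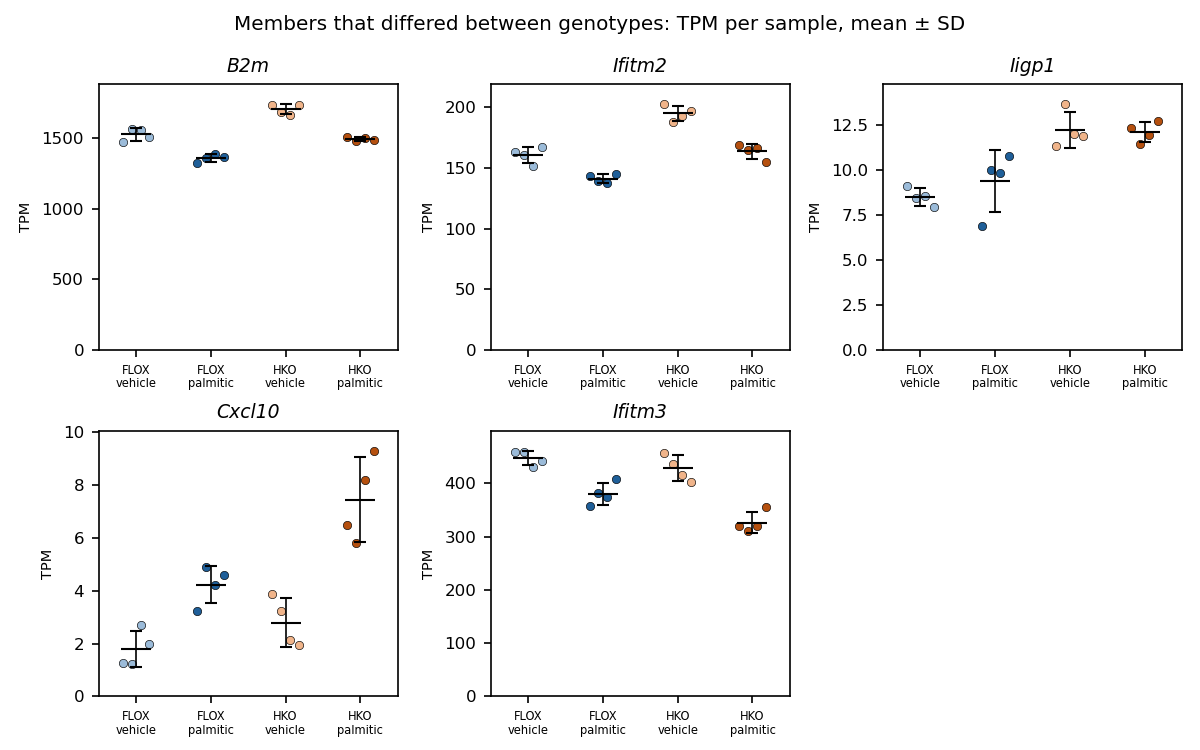
TPM in each sample for the 5 members called between genotypes, with points for samples 1 to 4 from left to right and bars for the mean ± SD. B2m, Ifitm2 and Iigp1 were higher in HKO with either treatment, and Cxcl10 (higher in HKO) and Ifitm3 (lower in HKO) were called under palmitic acid only.

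The response to palmitic acid did not detectably differ between genotypes for these genes. In the interaction, which is the HKO response minus the FLOX response, limma called 0 of 37 members, against 0.194% of all genes (0.152% higher and 0.0422% lower), and 1 had an unadjusted p under 0.05 (Ifitm3, -0.16 ± 0.071, adjusted p = 0.652). The median was -0.090, where that of all tested genes was 0.015. Without both FLOX libraries numbered 1 the members' median was -0.24, against -0.026 for all genes. Again 0 were called (0.0849% of all genes in each direction). Those libraries were singled out in part by these same genes. Leaving them out had to lower the members' median, so that value is a description. For Cxcl10 the difference was 0.24 ± 0.28, with a 95% confidence interval of -0.35 to 0.83, and for Rtp4 -0.014 ± 0.23 (-0.50 to 0.47). Ifit3 had the most negative value, -0.50 ± 0.37 (-1.29 to 0.29). The half-widths of these intervals ran from 0.079 to 0.79, and each interval gives the differences that these samples leave possible for its gene.

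Other interferon-stimulated genes, from a list of 47, showed both directions as well. With palmitic acid 8 of 26 tested were higher and 3 lower in FLOX, and 6 higher and 4 lower in HKO. The higher shares were 30.8% in FLOX, against 23% of all genes, and 23.1% in HKO, against 29.4%. Genes called lower made up 11.5% of all genes in FLOX and 13.1% in HKO, so some falls occur in any list. Slfn2, a schlafen protein of immune cell quiescence, rose from 3.83 ± 0.36 to 13.8 ± 0.95 TPM in FLOX and from 3.62 ± 0.35 to 12.3 ± 0.69 TPM in HKO (1.62 ± 0.077 and 1.53 ± 0.077, limma adjusted p = 3.93e-10 and 4.96e-10). Ccl5, a chemokine, had log2 fold changes of 0.67 ± 0.18 in FLOX and 0.67 ± 0.18 in HKO. Tgtp1, a GTPase with a near-identical copy (Tgtp2), fell in FLOX (-0.66 ± 0.15) and HKO (-0.64 ± 0.15).

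Cxcl9, a chemokine that shares its receptor with Cxcl10, differed by genotype. It stood at 19.6, 20.5, 17.9 and 19.4 TPM in FLOX vehicle and 10.5, 6.74, 8.97 and 10.1 TPM in HKO vehicle, and at 15.7, 14.8, 30.6 and 25.2 TPM in FLOX palmitic acid and 12.2, 9.64, 11.8 and 9.2 TPM in HKO palmitic acid. Every HKO sample was lower than every FLOX sample with either treatment (-1.03 ± 0.19 and -0.89 ± 0.19, limma adjusted p = 0.00192 and 0.00597), whereas Cxcl10 was not lower in HKO in either. Socs3, a feedback inhibitor of cytokine signalling, was higher in HKO at 4.22 ± 0.47 against 3.16 ± 0.43 TPM with vehicle and 3.99 ± 0.33 against 2.64 ± 0.25 TPM with palmitic acid. The vehicle call of Socs3 was lost without FLOX vehicle sample 1, 2 or 3 or HKO vehicle sample 1, 3 or 4 (adjusted p 0.0534 to 0.112). Ifngr1 was lower in HKO with both (-0.33 ± 0.051 and -0.26 ± 0.051).

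Of 19 genes of MHC class I and the immunoproteasome, 7 were higher and 1 lower with palmitic acid in FLOX and 7 higher and 2 lower in HKO. The higher share was 36.8% in each, against 23% of all genes in FLOX and 29.4% in HKO. Among all genes 11.5% were lower in FLOX and 13.1% in HKO. Nlrc5, the transactivator of MHC class I, rose (0.59 ± 0.15 and 0.57 ± 0.15), as did the class I gene H2-M3 (0.49 ± 0.11 and 0.72 ± 0.11), while H2-Q7 fell (-0.43 ± 0.062 and -0.44 ± 0.062). The classical heavy chain genes H2-K1 and H2-D1, which pair with B2m, stood at 1064 ± 22 and 488 ± 18 TPM in FLOX vehicle and were not called in any comparison. H2 genes have close copies between which reads could have been split. Psmb10, a catalytic subunit of the immunoproteasome, was lower in HKO than in FLOX under palmitic acid (-0.44 ± 0.063, limma adjusted p = 0.000229).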

How the data were processed

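RNA was sequenced from stranded total RNA libraries, per the labels' protocols. The authors deposited TPM values for 55416 mouse Ensembl genes, 16 samples in 1 table. RSEM 1.3.3 and the build GRCh38.p13, a human build that cannot be that of mouse genes, are named per the submitters' processing notes. Neither aligner nor annotation is named there, so no coordinates of the counted genes are given. A gene-name table gave symbols for 52083 IDs (94.0%), and all 39 members and 124 further pathway genes were found, Sting1 under an older symbol. Column sums ran from 975816 to 984870 TPM.

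Genes with at least 1 TPM in at least 4 samples (11858) were analysed with limma 3.58.1 (R 4.3.3) after adding 1 and taking log2, with 1 mean per group over all 16 samples and a mean-variance trend. A pseudocount of 1 makes fold changes of low genes smaller. Tests were two-sided, with Benjamini-Hochberg adjustment over all 11858 genes and a threshold of 0.05. The fit was tested on simulated data. Samples were grouped by their titles; no batch is named. The members, lists and tests were chosen with earlier results of these data known. Members called in any comparison were named, the 12 with the largest changes with every sample's value, and up to 4 called genes per pathway list. Ifnar2, Ifnlr1, Spp1, Krt19, Krt7, Sox9, Ifnk, Ifnb1, Cgas, Sting1, Socs1, H2-K1 and H2-D1 are named outside this rule, after their values were seen. Some genes of the lists are not reported here. Results were recomputed without each sample in turn, without both FLOX libraries numbered 1, with 0.1 added, unfiltered or filtered at 5 TPM, scaled by median ratios or by quantiles, without the trend, on the compared groups alone, and with the replicate number as a block. Promoter sequences are from RefSeq (GRCm38.p6).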

Additional observations from a re-analysis of the deposited data

Results flagged for a closer look

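In 11 of 148 groups of 4 samples (7.43%), over the 37 tested members, 1 sample lay far from the other 3 by Dixon's ratio, where chance flags about 1 in 20. FLOX palmitic acid sample 1 accounted for 3 of them, each low: Parp9 at 13.5 TPM, Parp14 at 5.43 TPM and Gbp2 at 2.47 TPM. FLOX palmitic acid sample 4 was high for Irf1, at 10.8 TPM. FLOX vehicle sample 1 was high for Ifih1 (9.76 TPM), sample 2 for Irf9 (8.91 TPM), and sample 4 was low for Dhx58 (4.09 TPM) and Mx2 (0.29 TPM). HKO vehicle sample 2 was high for Ifih1 (8.54 TPM) and Irf7 (17.4 TPM). HKO palmitic acid sample 2 was low for Bst2 (214 TPM).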

How the results depend on the processing

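Of 43 calls of members, 35 kept their direction and stayed past the threshold in every alternative run, 8 were lost in at least 1, and 0 changed sign. With palmitic acid in FLOX the 18 called members became 29 without both FLOX libraries numbered 1. Among all genes 33.3% were then higher and 11.4% lower, against 23% and 11.5% with all samples. Between genotypes under palmitic acid the 5 called members became 3 with no filter and 3 with the replicate block, and called genes overall went from 1155 to 669 with only the groups compared. In the interaction 23 genes in all became 9 with median-ratio scaling, 5 with no trend and 3 with the replicate block. Leaving out 1 sample at a time gave 16 to 26 called members with palmitic acid in FLOX (26 without palmitic acid sample 1), 3 to 5 between genotypes under palmitic acid (3 without FLOX palmitic acid sample 1 or 3 or HKO palmitic acid sample 1, 3 or 4), and 8 to 24 genes in all in the interaction (8 without FLOX vehicle sample 1 or HKO vehicle sample 2). The cause of these changes was not tested. The titles use the same numbers under both treatments, and the labels do not say whether the numbers 1 to 4 pair samples. Same-numbered samples deviated from their group means with correlations of -0.15 to 0.036 in FLOX and -0.027 to 0.086 in HKO between treatments. Between genotypes the correlations were -0.11 to -0.071 (vehicle) and -0.054 to 0.11 (palmitic acid). With 4 samples per group, such correlations cannot settle whether samples were paired. The replicate block gave 16 called members with palmitic acid in FLOX, 14 in HKO, 3 in the genotype comparison of vehicle samples, and 0 for the interaction. Calls over all genes also move with the setting, so a change in the number of called members is not by itself a result about the members. Depth is unknown, so low members such as Mx1, Ifi44 and Oasl2 cannot be given a counting error.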
